A study of Mus musculus with 110 samples.

Results

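The genes described here are 84 developmental transcription factor genes, chosen by symbol from the 24056 gene rows used. They are all Hox genes of clusters a to d, Irx1 to Irx6, Pax1 to Pax9, the numbered Tbx genes, Gata1 to Gata6, the Six-family genes, En1, En2, Wt1, Onecut1 and Onecut2. The rule names symbols alone and uses no expression value, but it was set with earlier results of these data known. Not all carry a homeobox: the Tbx proteins have a T-box, the Gata proteins and Wt1 zinc fingers, and Pax1 and Pax9 a paired domain without a homeodomain. The data were 110 RNA-seq libraries of mice. They came from the R6/2 line, which carries exon 1 of human huntingtin with an expanded CAG repeat and models Huntington's disease. An adeno-associated virus (AAV) delivered either ZFP, a zinc finger repressor of mutant huntingtin, or its control, named Delta. The 4 conditions were R6/2 with ZFP (R6/2 ZFP), R6/2 with Delta (R6/2 Delta), NCAR with ZFP (NCAR ZFP) and NCAR with Delta (NCAR Delta). NCAR is the labels' name for the mice set against R6/2 and is not spelled out there, and all libraries bear the same R6/2 strain label. IP libraries held RNA pulled down through an HA-tagged ribosomal protein (RiboTag) from astrocytes or neurons, and Input libraries held RNA of the starting tissue.

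Of 4 sets, MG (IP alone) and n_ZFP_a_Rpl (IP and Input) were labelled astrocytes, and hSyn and n_ZFP_n_Rpl (each IP and Input) neurons. Groups held 3 to 5 libraries: R6/2 Delta had 4 in MG, 3 in n_ZFP_a_Rpl, 3 in hSyn and 4 in n_ZFP_n_Rpl. R6/2 ZFP and NCAR ZFP had 4 in each set, and NCAR Delta had 4 except in hSyn, where it had 5. The labels give virus use as cell-type specific but not, per set, which cells received it, nor the tissue, the age, the RiboTag driver or whether replicates were separate animals, so p-values measure only the spread between these libraries. Total counts ran from 26.4M to 72.6M per library. The labels were set against markers, whose CPM are counts scaled to a common library size. In NCAR Delta, 8 astrocyte markers summed to 20692 to 26291 CPM in the MG IP and 18541 to 22654 CPM in the n_ZFP_a_Rpl IP. The neuron IPs had 5292 to 7846 CPM in hSyn and 2998 to 3955 CPM in n_ZFP_n_Rpl. The hSyn IP overlapped its own Input (6532 to 8569 CPM), so it also held astrocyte RNA, and the n_ZFP_n_Rpl IP lay below its Input (7396 to 8563 CPM). The 6 neuron markers did not separate the sets as clearly, with 4504 to 4968 CPM in the MG IP and 4424 to 4643 CPM in the n_ZFP_a_Rpl IP, above the 3807 to 4190 CPM of the n_ZFP_a_Rpl Input and not far below the 5168 to 5577 CPM of the hSyn IP, so the astrocyte IPs also held neuron RNA. Markers of striatal projection neurons (5 in the table) were present in all sets and lower in R6/2, at 1541 to 1665 CPM in R6/2 Delta against 5060 to 5759 CPM in NCAR Delta of the hSyn IP. Cortex markers were higher in n_ZFP_n_Rpl (319.6 to 1165 CPM in its NCAR Delta IP) than in hSyn (12.8 to 44.5 CPM), so sets were fitted apart. In such bulk RNA, fewer cells of a type and less RNA per cell cannot be told apart.

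These factors lay out the embryo. Hox proteins give the body axis its positions from the hindbrain backwards, while Six3 and Pax6 pattern the forebrain and eye, the Engrailed proteins En1 and En2 the midbrain and its border with the hindbrain, and Irx, Gata and T-box proteins the heart, limbs, blood and parts of the nervous system. Most of these genes are off in the adult forebrain, where Polycomb complexes keep them silent through histone H3 lysine 27 methylation and chromatin compaction. A few stay on as part of cell identity, among them Six3 in striatal projection neurons and Pax6 in astrocytes.

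Of the 84 genes, 34 (40.5%) reached 10 counts in at least 1 library, against 17403 of all 24056 genes (72.3%). Only Onecut2, Pax6 and Six3 reached 10 counts in all 110 libraries (3.57% of the 84, against 54.7% of all genes). The other 50 never did, and 6 Hox genes had no count anywhere. By family, 2 of 2 En, 2 of 2 Onecut, 5 of 6 Irx, 8 of 13 Tbx, 3 of 6 Six-family, 3 of 9 Pax and 2 of 6 Gata genes reached 10 counts, and so did Wt1. Among Hox genes the numbers were 2 of 11 in cluster a, 2 of 10 in b, 3 of 9 in c and 1 of 9 in d. The members with the most counts of their own family or Hox cluster over all libraries included Onecut2 with 222892, Six3 with 74093, Pax6 with 52126, Wt1 with 5246, En2 with 4561, Tbx2 with 3725, Irx5 with 3144, Gata2 with 2203, Hoxd1 with 671, Hoxb5 with 219 and Hoxc5 with 145. En1, the second Engrailed gene, stayed low, with 82 counts over 30 R6/2 IP libraries and 68 over 33 NCAR IP libraries.

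Start regions of 5 genes that the promoter table holds are printed. It holds none for Wt1, Irx5, En2 and Onecut2. Onecut1 was higher in R6/2, and Irx2 and Irx3 were so in some sets and fractions, with several of these calls lost under alternatives. Hoxb8 had nearly all its counts in R6/2 but too few to be tested, and Six3 is the expressed forebrain factor they are set against. Each line gives the 250 bases before a transcript start in the promoter table, 5′ to 3′ on the gene's own strand, from RefSeq (GRCm38.p6), with every CG dinucleotide in capitals. The windows of Irx2, Hoxb8 and Six3 lie inside the widest annotated span of the gene and those of Onecut1 and Irx3 just before it. Onecut1 is at chr9:74861671-74861920 on the plus strand, Irx2 at chr13:72628570-72628819 on the plus strand, Irx3 at chr8:91801655-91801904 on the minus strand, Hoxb8 at chr11:96281655-96281904 on the plus strand and Six3 at chr17:85620584-85620833 on the plus strand.
Onecut1: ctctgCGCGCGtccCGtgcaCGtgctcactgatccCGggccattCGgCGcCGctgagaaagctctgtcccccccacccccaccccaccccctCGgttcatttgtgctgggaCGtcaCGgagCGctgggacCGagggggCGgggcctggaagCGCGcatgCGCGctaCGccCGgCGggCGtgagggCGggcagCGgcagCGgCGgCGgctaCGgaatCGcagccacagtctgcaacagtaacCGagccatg
Irx2: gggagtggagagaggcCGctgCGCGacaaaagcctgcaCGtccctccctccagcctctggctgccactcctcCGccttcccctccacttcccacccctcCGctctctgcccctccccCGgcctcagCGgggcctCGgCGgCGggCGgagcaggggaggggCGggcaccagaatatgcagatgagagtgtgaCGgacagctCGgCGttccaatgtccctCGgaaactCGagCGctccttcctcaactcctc
Irx3: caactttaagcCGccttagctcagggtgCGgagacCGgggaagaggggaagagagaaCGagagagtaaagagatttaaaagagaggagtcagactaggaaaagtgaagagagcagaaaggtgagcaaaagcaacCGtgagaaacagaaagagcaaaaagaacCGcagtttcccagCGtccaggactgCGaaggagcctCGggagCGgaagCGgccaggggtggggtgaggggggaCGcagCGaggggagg
Hoxb8: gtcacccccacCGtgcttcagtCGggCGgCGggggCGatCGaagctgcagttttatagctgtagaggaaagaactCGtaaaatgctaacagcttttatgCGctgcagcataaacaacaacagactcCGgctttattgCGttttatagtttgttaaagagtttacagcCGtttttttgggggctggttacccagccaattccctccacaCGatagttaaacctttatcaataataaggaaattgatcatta
Six3: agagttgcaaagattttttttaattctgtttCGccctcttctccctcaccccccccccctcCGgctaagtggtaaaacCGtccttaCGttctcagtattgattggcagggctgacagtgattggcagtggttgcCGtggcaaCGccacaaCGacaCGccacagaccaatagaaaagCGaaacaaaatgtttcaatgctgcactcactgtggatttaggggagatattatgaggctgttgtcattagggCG
The Onecut1 window held 31 CG dinucleotides, Irx2 19, Irx3 13, Hoxb8 12 and Six3 10. Over the 62 windows of the 52 members in the promoter table the median was 13 CG dinucleotides and 59.4% G+C, against 6 and 52.4% over 32841 windows of all genes. CG-rich starts are where Polycomb complexes are known to gather. The TATA motif TATAAA, searched on both strands, was in 6 of the 62 windows (9.68%), that of Hoxb8 among these 5, against 12.4% of all windows. The homeodomain core TAATTA, which reads the same on both strands, was in 4 (6.45%) against 4.84%, and in none of the 5 printed. Neither motif holds a CG, and a TATAAA can share bases with a neighbouring TAATTA.

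R6/2 Delta libraries had more of the 84 genes at 10 or more counts than NCAR Delta libraries in every set and fraction. The numbers were 15 to 19 against 11 to 12 in the MG IP, 12 to 13 against 8 to 11 in the n_ZFP_a_Rpl IP, 13 to 16 against 8 to 10 in the hSyn IP and 12 to 17 against 7 to 9 in the n_ZFP_n_Rpl IP. In Inputs they were 18 to 19 against 13 to 17 in n_ZFP_a_Rpl, 19 to 24 against 15 to 18 in hSyn and 17 to 24 against 13 to 15 in n_ZFP_n_Rpl. The 2 groups overlapped in none of the 7. Over all genes the numbers overlapped in all 7, for example 14606 to 14696 in R6/2 Delta and 14456 to 14852 in NCAR Delta of the hSyn IP.

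The first comparison asked which of these genes differ between R6/2 Delta and NCAR Delta. Wt1, Irx5 and En2 rose in all 4 IPs, and Irx5, Wt1 and Onecut1 rose in all 3 Inputs. Across the 7 comparisons 14 of the 84 genes rose in at least 1 and 3 fell in at least 1 (Onecut2, Six3 and Tbx15), with Tbx15 in both numbers, which is 56% and 12% of the 25 tested at least once. Of all 16580 genes tested at least once, 42.9% rose and 41.9% fell in at least 1. Genes were tested where enough libraries had about 10 counts, with edgeR's quasi-likelihood test, and called at a Benjamini-Hochberg adjusted p under 0.05 over all genes tested. In the MG IP 16 of the 84 genes were tested, 6 rose and 1 fell, against 17.4% of all genes higher and 16.2% lower. In the n_ZFP_a_Rpl IP 14 were tested, 7 rose and 1 fell (all genes 20.6% higher, 24.7% lower). In the hSyn IP 14 were tested, 4 rose and 1 fell (all genes 25.4% and 25.5%). In the n_ZFP_n_Rpl IP 15 were tested, 6 rose and none fell (all genes 25.2% and 26.2%). Some of those tested passed the filter on low counts through R6/2 libraries alone and so had to be higher there: Wt1 and Hoxd1 in the MG IP, Onecut1 in the hSyn IP, and Hoxb5, Irx5, Onecut1 and Pax2 in the n_ZFP_n_Rpl IP. Among those called, Irx2 in MG, Irx3 and Tbx3 in n_ZFP_a_Rpl and Irx5 in hSyn also needed R6/2 libraries to pass. Their NCAR libraries with enough counts were too few on their own. The shares of tested genes therefore say little about the list as a whole, and the 68 to 70 members not tested in an IP had too few counts.

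In the hSyn Input 23 were tested, 6 rose and 2 fell, against 22.5% of all genes higher and 21.6% lower. In the n_ZFP_a_Rpl Input 21 were tested, 5 rose and none fell (all genes 24.4% and 24.7%). In the n_ZFP_n_Rpl Input 20 were tested, 9 rose and 1 fell (all genes 26.1% and 23.7%). Onecut1 passed the filter through R6/2 libraries alone in all 3 Inputs, Irx3 in those of n_ZFP_a_Rpl and n_ZFP_n_Rpl, and Irx5 and Pax2 in that of n_ZFP_n_Rpl. Wt1 and Irx5 in n_ZFP_a_Rpl, Irx2 in hSyn, and Wt1 and Irx2 in n_ZFP_n_Rpl, all called, also needed R6/2 libraries to pass. Several calls rested on 1 library. Without R6/2 Delta replicate 1 the n_ZFP_a_Rpl IP had 5 calls in place of 8, with Wt1, Tbx3 and Tbx15 lost. Without R6/2 Delta replicate 2 or replicate 3 the hSyn Input had 5 in place of 8, with En2, Irx2 and Six3 lost. Without R6/2 Delta replicate 3 the n_ZFP_a_Rpl Input had 3 in place of 5 (Irx1 and Six4 lost) and the n_ZFP_n_Rpl Input 6 in place of 10 (Irx1, Irx2, Tbx2 and Tbx15 lost). In that n_ZFP_n_Rpl Input the 4 meningeal fibroblast markers, none at 0, summed to 23.6 to 45.6 CPM in R6/2 Delta, highest in replicate 3. NCAR Delta had 17.1 to 24.3 CPM, so the groups overlapped. In the hSyn Input the sums were 19.7 to 22.7 CPM against 16.6 to 27.3 CPM. Their part in the result was not tested.

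**Figure D1:**
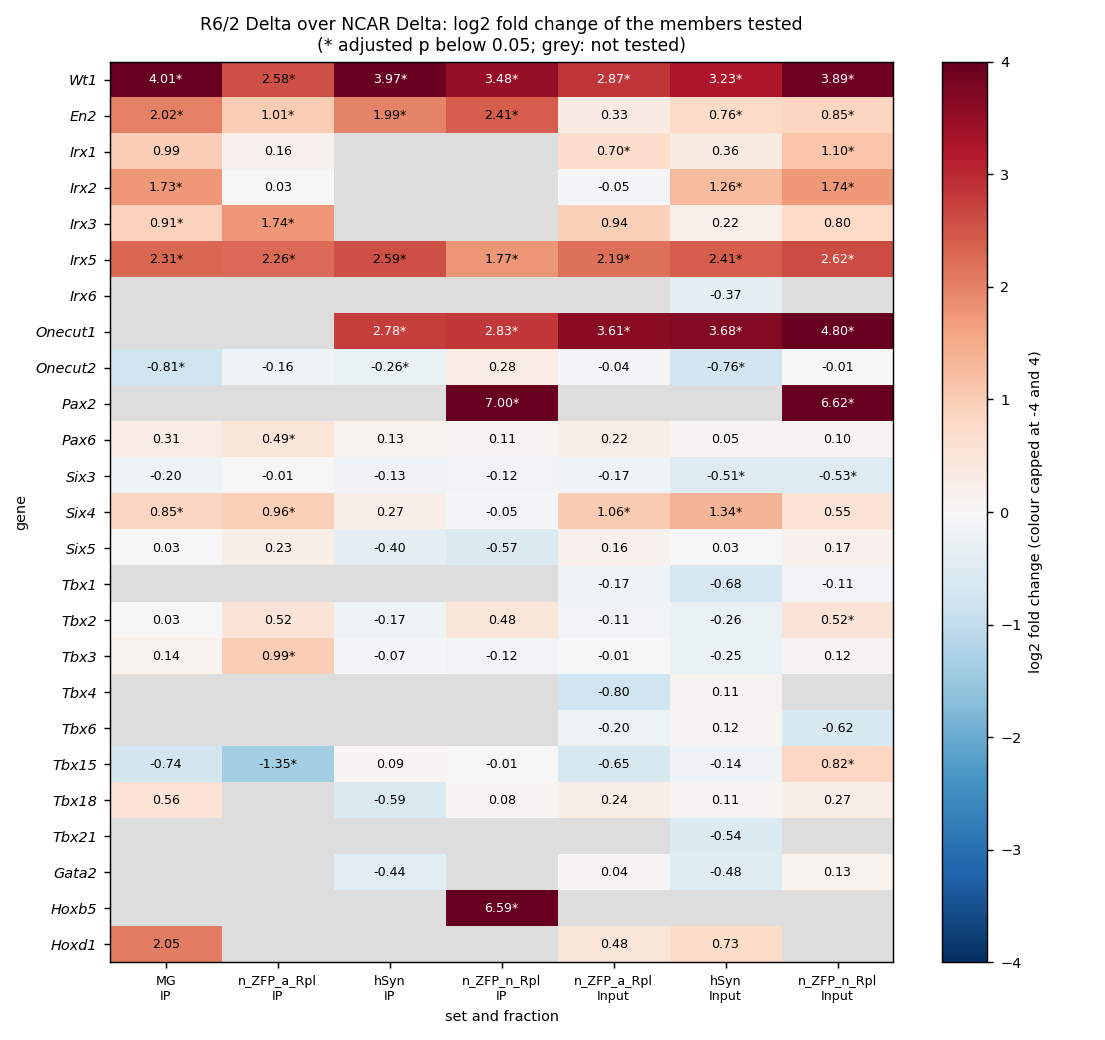
Log2 fold change of R6/2 Delta over NCAR Delta (colour and number; the colour scale is limited to 4 either way) for the members tested (rows) in each set and fraction (columns), with an asterisk at an adjusted p under 0.05 and grey where a gene was not tested. Wt1 and Irx5 are called higher in all 7 columns; the values of Hoxb5 and Pax2 are set against groups with no counts, depend on the model's prior count and are no bounds.

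Wt1, the zinc finger factor needed for kidney and gonad development, had the largest log2 fold change in each of the 4 IPs among the tested members with counts in NCAR Delta. In the MG IP it had 0.946, 1.45, 1.66 and 1.96 CPM in R6/2 Delta, against 0.0841, 0.133, 0.0672 and 0.0781 CPM in NCAR Delta. In the n_ZFP_a_Rpl IP it had 1.92, 1.02 and 0.651 CPM in R6/2 Delta, against 0.243, 0.345, 0.0448 and 0.164 CPM in NCAR Delta. All R6/2 Delta libraries lay above all NCAR Delta libraries in both astrocyte sets. In the hSyn IP it had 4.15, 3.13 and 3.85 CPM in R6/2 Delta, against 0.367, 0.216, 0.0576, 0.398 and 0.139 CPM in NCAR Delta. In the n_ZFP_n_Rpl IP it had 1.697, 2.199, 5.34 and 2.23 CPM in R6/2 Delta, against 0.228, 0.166, 0.301 and 0.316 CPM in NCAR Delta. The neuron groups did not overlap either, and replicate 3 of R6/2 Delta was the highest in n_ZFP_n_Rpl. The log2 fold changes were 4.01 ± 0.46 (SE) in MG, 2.58 ± 0.79 in n_ZFP_a_Rpl, 3.97 ± 0.48 in hSyn and 3.48 ± 0.42 in n_ZFP_n_Rpl, with adjusted p of 9.24e-06, 0.016, 4.91e-06 and 6.71e-06 in the same order. Without R6/2 Delta replicate 1 the n_ZFP_a_Rpl value was 2.07 and no longer passed (adjusted p = 0.0784, edgeR).

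Wt1 rose in the tissue too. In the n_ZFP_a_Rpl Input Wt1 had 3.25, 2.01 and 0.786 CPM in R6/2 Delta, against 0.366, 0.327, 0.07104 and 0.317 CPM in NCAR Delta. Values in the hSyn Input were 4.397, 2.29 and 3.02 CPM in R6/2 Delta, against 0.533, 0.162, 0.0732, 0.457 and 0.488 CPM in NCAR Delta. Values in the n_ZFP_n_Rpl Input were 1.55, 1.43, 3.095 and 1.09 CPM in R6/2 Delta, against 0.236, 0.0384, 0.113 and 0.0784 CPM in NCAR Delta. The groups did not overlap in any of the 3 Inputs, and the log2 fold changes were 2.87 ± 0.44, 3.23 ± 0.51 and 3.89 ± 0.53 (SE), with adjusted p of 3.04e-05, 0.000107 and 1.49e-05. Wt1os, the antisense partner of Wt1, had 2 counts in all 110 libraries. IP and Input libraries of a set share replicate numbers and may come from the same animals, so the fractions are not independent of each other.

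**Figure D2:**
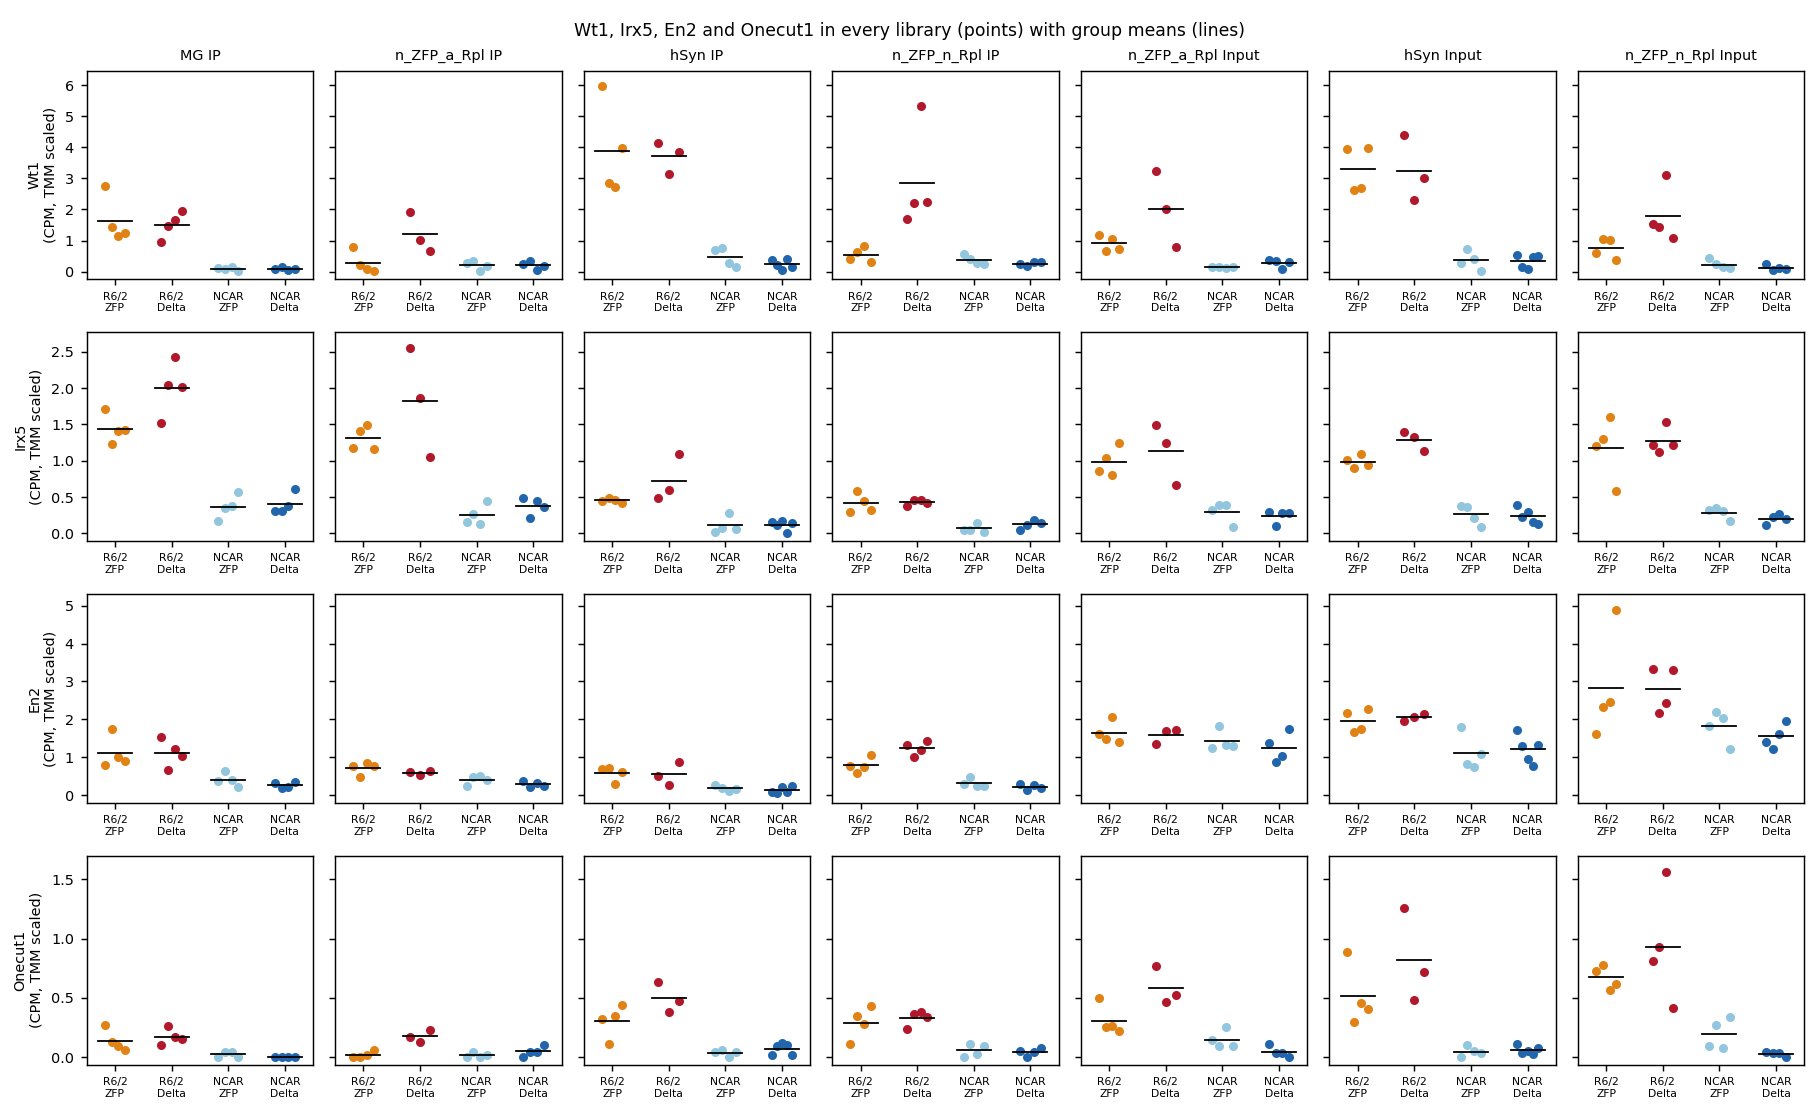
Level of Wt1, Irx5, En2 and Onecut1 (rows; TMM-scaled CPM) in every library (points) of the 4 conditions, with group means (lines), for each set and fraction (columns). R6/2 Delta points lie above NCAR Delta points for Wt1 and Irx5 in all 7 columns; the R6/2 ZFP points of Wt1 lie below those of R6/2 Delta in the n_ZFP_n_Rpl IP and overlap them in the MG and hSyn columns.

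Irx5, an Iroquois homeodomain factor known from heart conduction and retinal development, had 1.53, 2.05, 2.43 and 2.02 CPM in R6/2 Delta, against 0.315, 0.304, 0.381 and 0.605 CPM in NCAR Delta in the MG IP. Its n_ZFP_a_Rpl IP values were 2.55, 1.86 and 1.05 CPM in R6/2 Delta, against 0.486, 0.207, 0.448 and 0.3701 CPM in NCAR Delta. Neither pair of groups overlapped. Its hSyn IP values were 0.484, 0.596 and 1.095 CPM in R6/2 Delta, against 0.155, 0.1199, 0.173, 0 and 0.139 CPM in NCAR Delta. Its n_ZFP_n_Rpl IP values were 0.382, 0.459, 0.465 and 0.421 CPM in R6/2 Delta, against 0.0508, 0.111, 0.185 and 0.146 CPM in NCAR Delta. Again all R6/2 Delta libraries were the higher ones. The log2 fold changes were 2.31 ± 0.30, 2.26 ± 0.36, 2.59 ± 0.58 and 1.77 ± 0.38 (SE), adjusted p 3.32e-05, 9.8e-05, 0.0013 and 0.00124. Its n_ZFP_a_Rpl Input values were 1.499, 1.24 and 0.6695 CPM in R6/2 Delta, against 0.293, 0.109, 0.284 and 0.285 CPM in NCAR Delta. Its hSyn Input values were 1.401, 1.33 and 1.14 CPM in R6/2 Delta, against 0.393, 0.227, 0.293, 0.152 and 0.128 CPM in NCAR Delta. Its n_ZFP_n_Rpl Input values were 1.22, 1.13, 1.53 and 1.21 CPM in R6/2 Delta, against 0.118, 0.231, 0.264 and 0.196 CPM in NCAR Delta. These did not overlap, with log2 fold changes of 2.19 ± 0.39, 2.41 ± 0.36 and 2.62 ± 0.33 and adjusted p of 0.000132, 4.97e-05 and 7.05e-06. Every call of Irx5 in R6/2 Delta against NCAR Delta held under all alternatives run.

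Irx5 lies beside Irx3 and Irx6 on chromosome 8, and Irx1, Irx2 and Irx4 form the other Iroquois cluster on chromosome 13 (GRCm38.p6). Irx3 rose in the astrocyte IPs, with 0.675, 0.376 and 0.546 CPM in R6/2 Delta, against 0.146, 0.0921, 0.269 and 0.123 CPM in NCAR Delta in n_ZFP_a_Rpl (a log2 fold change of 1.74 ± 0.39 (SE), adjusted p = 0.00186). In the MG IP its log2 fold change was 0.91 ± 0.33 (adjusted p = 0.0412), a call lost in 10 of 14 alternatives, among them 7 of the 8 that leave out 1 library, all but that of NCAR Delta replicate 4, with adjusted p of 0.0134 to 0.122. It was not tested in the neuron IPs. Irx2 had 0.216, 0.352, 0.203 and 0.407 CPM in R6/2 Delta, against 0.06304, 0.152, 0.0672 and 0.0586 CPM in NCAR Delta in the MG IP (a log2 fold change of 1.73 ± 0.52 (SE), adjusted p = 0.0177), lost without R6/2 Delta replicate 4 (adjusted p = 0.0511) or NCAR Delta replicate 4 (0.0519). For the n_ZFP_a_Rpl IP the log2 fold change of Irx2 was 0.03 ± 0.49 (adjusted p = 0.968). The difference between the 2 astrocyte sets was not tested. Irx2 rose in the hSyn Input (1.26 ± 0.45, adjusted p = 0.0306) and the n_ZFP_n_Rpl Input (1.74 ± 0.62, 0.0277), and its reads can overlap those of Gm20554. The hSyn call was lost in 6 of 14 alternatives, with the replicate block (adjusted p = 0.181) and without R6/2 Delta replicate 2 or 3 or NCAR Delta replicate 3, 4 or 5. The n_ZFP_n_Rpl call was lost without R6/2 Delta replicate 3 or 4 or NCAR Delta replicate 1 or 2 (adjusted p up to 0.0826). Irx1 rose in the n_ZFP_a_Rpl Input (0.70 ± 0.27, adjusted p = 0.0394, lost in 10 of 13 alternatives) and in the n_ZFP_n_Rpl Input (1.10 ± 0.38, 0.0241). Irx6, next to Irx5, had 31 counts over all R6/2 IPs and 57 over all NCAR IPs, and where it was tested, in the hSyn Input, its log2 fold change was -0.37 ± 0.75 (adjusted p = 0.716).

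En2, the Engrailed factor of the midbrain and cerebellum, had 1.54, 0.6599, 1.22 and 1.05 CPM in R6/2 Delta, against 0.336, 0.1903, 0.224 and 0.351 CPM in NCAR Delta in the MG IP. The n_ZFP_a_Rpl IP libraries had 0.612, 0.523 and 0.651 CPM in R6/2 Delta, against 0.389, 0.2302, 0.314 and 0.247 CPM in NCAR Delta. The R6/2 Delta libraries were the higher ones in both. The hSyn IP libraries had 0.521, 0.281 and 0.865 CPM in R6/2 Delta, against 0.0967, 0.04797, 0.211, 0.0837 and 0.239 CPM in NCAR Delta. The n_ZFP_n_Rpl IP libraries had 1.31, 1.02, 1.196 and 1.43 CPM in R6/2 Delta, against 0.305, 0.139, 0.278 and 0.195 CPM in NCAR Delta. These groups did not overlap either. The log2 fold changes were 2.02 ± 0.38, 1.01 ± 0.29, 1.99 ± 0.48 and 2.41 ± 0.28 (SE), adjusted p 0.000687, 0.00912, 0.00229 and 4.14e-06. In the tissue the log2 fold changes of En2 were lower, and the difference from the IP passed its test in n_ZFP_n_Rpl alone. The n_ZFP_a_Rpl Input had 1.34, 1.703 and 1.72 CPM in R6/2 Delta, against 1.39, 0.873, 1.03 and 1.74 CPM in NCAR Delta. The hSyn Input had 1.96, 2.06 and 2.15 CPM in R6/2 Delta, against 1.71, 1.298, 0.951, 0.761 and 1.33 CPM in NCAR Delta. The n_ZFP_n_Rpl Input had 3.34, 2.17, 2.42 and 3.31 CPM in R6/2 Delta, against 1.41, 1.23, 1.62 and 1.96 CPM in NCAR Delta. The n_ZFP_a_Rpl Input groups overlapped and gave 0.33 ± 0.23 (adjusted p = 0.26). The other 2 gave 0.76 ± 0.28 (adjusted p = 0.0351) and 0.85 ± 0.29 (0.0233). Each of these was lost when single libraries were left out: in hSyn any of R6/2 Delta replicates 1, 2 and 3 and NCAR Delta replicates 3 and 4 (adjusted p up to 0.0903), in n_ZFP_n_Rpl R6/2 Delta replicate 1 or 4 or NCAR Delta replicate 1 or 2 (up to 0.0708). Neuron markers of the midbrain and hindbrain (5 genes) summed to 7.74 to 11.4 CPM in R6/2 Delta against 13.6 to 21.1 CPM in NCAR Delta of the MG IP. The 6 general neuron markers were lower there too, at 3034 to 3775 against 4504 to 4968 CPM. The part of either marker list in the En2 result was not tested.

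Onecut1, a cut homeodomain factor of liver, pancreas and retina, was nearly silent in NCAR Delta. In the hSyn IP it had 34, 23 and 27 counts in R6/2 Delta, against 1, 4, 6, 5 and 1 counts in NCAR Delta (a log2 fold change of 2.78 ± 0.55 (SE), adjusted p = 0.000496). In the n_ZFP_n_Rpl IP it had 10, 15, 17 and 16 counts, against 2, 0, 2 and 3 (a log2 fold change of 2.83 ± 0.61 (SE), adjusted p = 0.00112). Groups did not overlap in either neuron set. In the MG IP, where it was not tested, R6/2 Delta had 6, 12, 10 and 8 counts and NCAR Delta none, at least 10.9-fold higher against a floor of 3 counts over the group. In the n_ZFP_a_Rpl IP it had 8, 6 and 11 counts in R6/2 Delta and 0, 2, 2 and 5 in NCAR Delta and was not tested. In the n_ZFP_a_Rpl Input the counts were 24, 15 and 18 against 3, 1, 1 and 0 (log2 fold change 3.61 ± 0.56, adjusted p = 3.09e-05). In the hSyn Input they were 52, 19 and 32 against 4, 1, 2, 1 and 3 (3.68 ± 0.56, 5.46e-05). In the n_ZFP_n_Rpl Input the sums were 121 in R6/2 Delta and 3 in NCAR Delta, a ratio of summed CPM of 31.1 with a 95% interval of 10.4 to 153 for counting error only (adjusted p = 9.3e-06). All R6/2 Delta Inputs lay above all NCAR Delta Inputs.

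Onecut2, its expressed relative, went the other way where it was called. It had 11.1, 13.7, 12.9 and 15.9 CPM in R6/2 Delta, against 18.7, 23.4, 30.1 and 21.9 CPM in NCAR Delta in the MG IP (a log2 fold change of -0.81 ± 0.15 (SE), adjusted p = 0.000723), with no overlap. In that IP neuron markers had 3034 to 3775 CPM in R6/2 Delta against 4504 to 4968 CPM in NCAR Delta, and striatal projection neuron markers 738 to 1062 against 2914 to 3135 CPM. Their part was not tested. In the hSyn IP Onecut2 had 37.6, 37.9 and 30.7 CPM in R6/2 Delta, against 37.3, 43.3, 45.2, 42.7 and 43.1 CPM in NCAR Delta. These groups overlapped (a log2 fold change of -0.26 ± 0.10 (SE), adjusted p = 0.0321), and the call was lost without R6/2 Delta replicate 3 (adjusted p = 0.199) or any of NCAR Delta replicates 1 to 4 (0.0510 to 0.0659). It averaged, in the n_ZFP_a_Rpl IP, 20.3 ± 3.55 CPM (SD, n = 3) in R6/2 Delta and 22.7 ± 2.898 CPM (n = 4) in NCAR Delta, adjusted p = 0.397 by edgeR. In the n_ZFP_n_Rpl IP its log2 fold change was 0.28 ± 0.14 (adjusted p = 0.103) and passed as higher without NCAR Delta replicate 3 (0.47, adjusted p = 0.00167). It fell by 0.76 on the log2 scale in the hSyn Input (adjusted p = 7.9e-05) and had log2 fold changes of -0.04 and -0.01 in the n_ZFP_a_Rpl and n_ZFP_n_Rpl Inputs, neither called.

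Six4, a homeobox factor of muscle and sensory development, rose in both astrocyte IPs. It had 0.8299, 0.6599, 0.726 and 1.03 CPM in R6/2 Delta, against 0.504, 0.381, 0.381 and 0.527 CPM in NCAR Delta in MG (log2 fold change 0.85 ± 0.29, adjusted p = 0.0339). In the n_ZFP_a_Rpl IP it had 0.886, 0.815 and 0.8395 CPM in R6/2 Delta, against 0.5102, 0.253, 0.538 and 0.432 CPM in NCAR Delta (0.96 ± 0.28, 0.0104). Neither pair overlapped, and in the neuron IPs Six4 had log2 fold changes of 0.27 (hSyn) and -0.05 (n_ZFP_n_Rpl), neither called. In Inputs Six4 rose in hSyn (1.34 ± 0.31, 0.00186) and n_ZFP_a_Rpl (1.06 ± 0.33, 0.0118), with the n_ZFP_a_Rpl call lost without R6/2 Delta replicate 3. Mnat1, a protein-coding gene over Six4, had 93959 counts. Six3, the forebrain factor, fell in the hSyn Input, with 14.3, 12.3 and 12.3 CPM in R6/2 Delta, against 13.6, 22.8, 15.02, 24 and 16.9 CPM in NCAR Delta (a log2 fold change of -0.51 ± 0.15 (SE), adjusted p = 0.0121). It also fell in the n_ZFP_n_Rpl Input, with 14.7, 11.4, 11.8 and 14.5 CPM in R6/2 Delta, against 13.4, 17.1, 23.5 and 21.7 CPM in NCAR Delta (a log2 fold change of -0.53 ± 0.17 (SE), adjusted p = 0.0167). The groups overlapped in both. The hSyn call was lost without R6/2 Delta replicate 2 or 3 and the n_ZFP_n_Rpl call without R6/2 Delta replicate 2 or NCAR Delta replicate 3, with adjusted p of 0.0505 to 0.0560. Striatal projection neuron markers were lower beside it, at 1161 to 1243 CPM in R6/2 Delta against 3444 to 4114 CPM in NCAR Delta of the hSyn Input and 585 to 635 CPM against 1874 to 3276 CPM in n_ZFP_n_Rpl, none of the 5 at 0, and their part in the result was not tested. Six3 was not called in any IP (log2 fold changes -0.20, -0.01, -0.13 and -0.12 in MG, n_ZFP_a_Rpl, hSyn and n_ZFP_n_Rpl). Six3os1 lies over Six3 and took 65515 counts. Six5 was tested in all 7 and called in none.

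Pax6, the forebrain and eye factor that adult astrocytes keep, rose in the n_ZFP_a_Rpl IP, with 16.3, 16.5 and 17.5 CPM in R6/2 Delta, against 12.7, 11.4, 12.2 and 11.3 CPM in NCAR Delta (a log2 fold change of 0.49 ± 0.07 (SE), adjusted p = 4.49e-05). The groups did not overlap. In the other 3 IPs the log2 fold changes of Pax6 were 0.31 (MG), 0.13 (hSyn) and 0.11 (n_ZFP_n_Rpl), none called. Pax6os1, which overlaps Pax6, had 326 counts in all, and Elp4, a protein-coding gene that overlaps it too, had 140576, so shared reads cannot be told apart. Other markers moved in the n_ZFP_a_Rpl IP as well: the 4 mural markers summed to 51.9 to 57.7 CPM in R6/2 Delta against 43.3 to 49.6 CPM in NCAR Delta, the 6 neuron markers to 2940 to 3202 CPM against 4424 to 4643 CPM and the 8 astrocyte markers to 14050 to 15253 CPM against 18541 to 22654 CPM. Their part in the result was not tested. Pax2, a factor of the kidney and the midbrain-hindbrain border, had 26, 13, 23 and 4 counts in R6/2 Delta and none in the 4 NCAR Delta libraries of the n_ZFP_n_Rpl IP, at least 19.99-fold higher (adjusted p = 0.000592). In the n_ZFP_n_Rpl Input the counts were 11, 9, 16 and 19 against none, at least 14.1-fold higher (adjusted p = 5.87e-05).

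The T-box genes called were Tbx2, Tbx3 and Tbx15, while Tbx1, Tbx4, Tbx6, Tbx18 and Tbx21 were tested and not called. Of all genes tested at least once, 42.9% rose and 41.9% fell in at least 1 comparison. Gata2 alone of the Gata genes had enough counts to be tested. Tbx15, a limb and fat factor, fell in the n_ZFP_a_Rpl IP, with 4, 6 and 6 counts in R6/2 Delta against 18, 10, 14 and 9 counts in NCAR Delta (a log2 fold change of -1.35 ± 0.42 (SE), adjusted p = 0.0161). That call was lost without R6/2 Delta replicate 1 (adjusted p = 0.0646) or NCAR Delta replicate 1 (0.0528). In the n_ZFP_n_Rpl Input Tbx15 rose (0.82 ± 0.28, adjusted p = 0.0203), and the difference between these directions was not tested. The meningeal fibroblast markers of that Input are given above, and their part in the rise was not tested. Tbx3 rose in the n_ZFP_a_Rpl IP, with 0.274, 0.314 and 0.294 CPM against 0.121, 0.207, 0.179 and 0.0822 CPM (a log2 fold change of 0.99 ± 0.35 (SE), adjusted p = 0.0298). The call was lost in 8 of 13 alternatives, DESeq2 among them (adjusted p = 0.0750) and without NCAR Delta replicate 1 or 4 or any 1 of the 3 R6/2 Delta libraries. Tbx2, the T-box gene with the most counts, rose in the n_ZFP_n_Rpl Input (0.52 ± 0.19, adjusted p = 0.0268). Tbx18, a gene of mural cells, was tested in 6 of the 7 and called in none. Gata2, the Gata gene with the most counts, was tested in the hSyn IP and the 3 Inputs and called in none. Its log2 fold changes there were -0.44 in the IP and -0.48, 0.04 and 0.13 in the hSyn, n_ZFP_a_Rpl and n_ZFP_n_Rpl Inputs.

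Hox genes were at the edge of detection. Their counts are described gene by gene and library by library, with no test beyond those given. Hoxb5 had 12, 11, 22 and 5 counts in R6/2 Delta and 14, 2, 23 and 17 in R6/2 ZFP of the n_ZFP_n_Rpl IP, and none in the 8 NCAR libraries. Against the floor R6/2 Delta was at least 15.1-fold higher than NCAR Delta (edgeR adjusted p = 0.00266). In the n_ZFP_n_Rpl Input Hoxb5 had 9, 7, 11 and 12 counts in R6/2 Delta and none in NCAR Delta, at least 10.02-fold higher, without a test. Hoxb8 had 2, 2, 15 and 1 counts in R6/2 Delta of the n_ZFP_n_Rpl IP and 6, 3, 12 and 8 in its Input, against none in the 4 NCAR Delta libraries of either. Hoxd1, the Hox gene with the most counts, was tested in the MG IP (2.05 ± 0.81, adjusted p = 0.0611) and in the hSyn and n_ZFP_a_Rpl Inputs (0.73 ± 0.52, 0.267, and 0.48 ± 0.50, 0.452), and called in none.

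Pooled over both viruses, the 30 R6/2 IP libraries held 1057 Hox counts and the 33 NCAR IP libraries 148, which is 0.705 against 0.0912 CPM. In Inputs it was 920 counts in 22 R6/2 libraries against 293 in 25 NCAR libraries (1.25 against 0.361 CPM). By cluster, R6/2 and NCAR IPs held 299 against 67 counts of Hoxa, 264 against 7 of Hoxb, 239 against 9 of Hoxc and 255 against 65 of Hoxd. Genes with low and middle numbers in their clusters held most of these counts. Hoxa7 had 142 against 21 IP counts, Hoxc4 84 against 2, Hoxc5 92 against 1, Hoxc6 40 against 2, Hoxd8 36 against 2 and Hoxd1 211 against 62. Hoxb5 had 130 against 0 (at least 46.9-fold), Hoxb6 57 against 0 (at least 20.6-fold), Hoxb8 36 against 0 and Hoxa5 19 against 0. At the posterior end Hoxa13, Hoxb13, Hoxc13 and Hoxd13 had 1, 11, 10 and 2 IP counts in R6/2, against 2, 2, 3 and 0 in NCAR. Hoxb4 was not higher in Inputs, with 35 against 40 counts. Hox genes of a cluster overlap in part (Hoxa3 with Hoxa4 to Hoxa6, Hoxb3 with Hoxb4, Hoxd3 with Hoxd4), and whether strand was used is not given in the sources used here, so reads of such neighbours and of antisense RNAs may not be told apart.

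**Figure D3:**
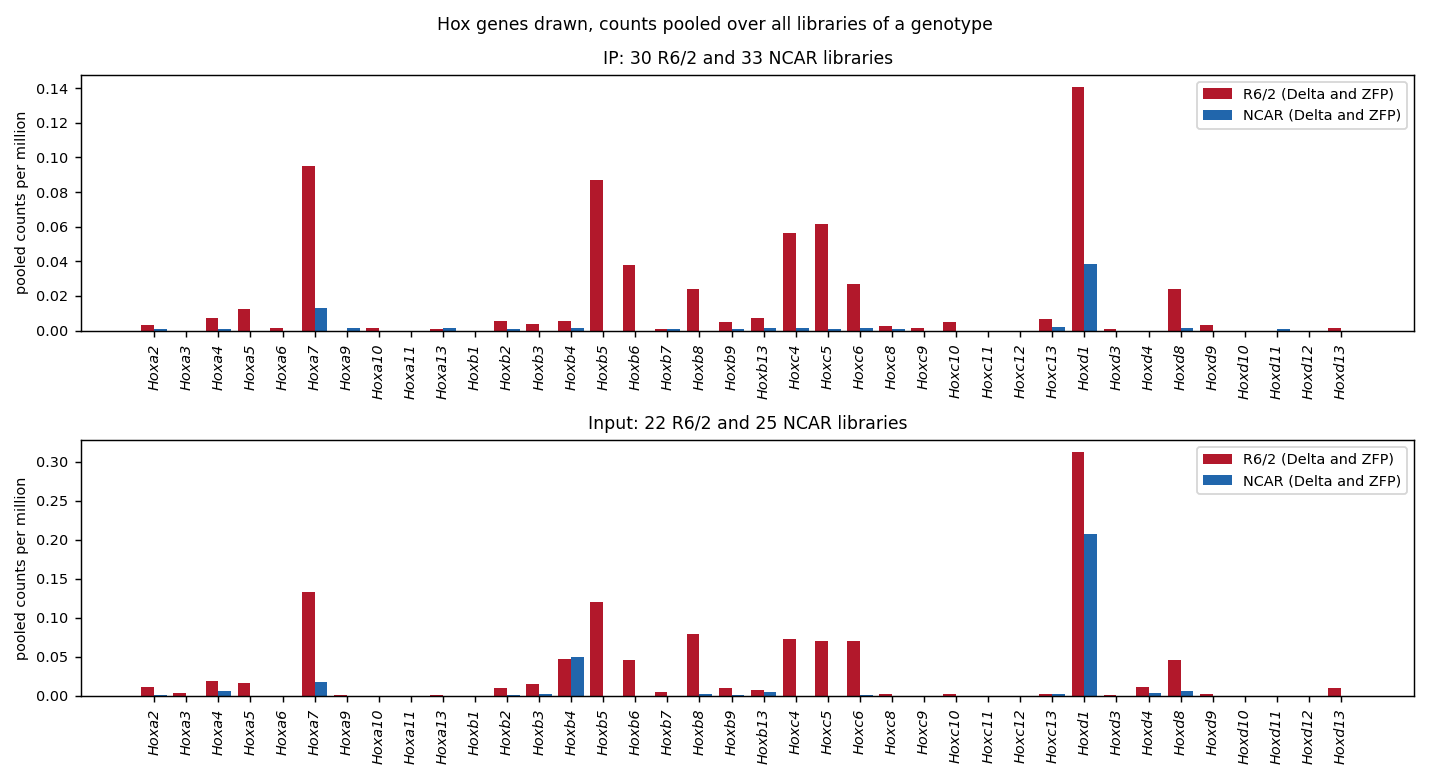
Pooled CPM of the Hox genes drawn over all R6/2 libraries (red, left) and all NCAR libraries (blue, right), for IPs (upper panel, 30 and 33 libraries) and Inputs (lower panel, 22 and 25 libraries). Hoxb5 and Hoxb6 have bars in R6/2 only; Hoxb4 in Inputs is the clearest gene without a higher R6/2 bar (35 against 40 counts).

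The excess was spread over libraries. Summed over the 39 Hox genes, R6/2 Delta libraries held 20 to 48 counts in the MG IP, against 4 to 12 in NCAR Delta. For the n_ZFP_a_Rpl IP it was 24 to 29 against 4 to 7, in the hSyn IP 18 to 61 against 0 to 4 and in the n_ZFP_n_Rpl IP 30 to 76 against 2 to 6. In Inputs it was 21 to 50 against 8 to 16 in n_ZFP_a_Rpl, 24 to 54 against 10 to 19 in hSyn and 40 to 73 against 7 to 10 in n_ZFP_n_Rpl. The groups overlapped in none of the 7. The ZFP arms stood likewise: in the MG IP R6/2 ZFP had 33 to 62 counts and NCAR ZFP 6 to 10, and in the n_ZFP_n_Rpl IP 27 to 76 and 1 to 4. The number of different Hox genes with a count was 10 to 14 in R6/2 Delta and 2 to 4 in NCAR Delta of the n_ZFP_n_Rpl IP, so no single Hox gene made the sums.

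**Figure D4:**
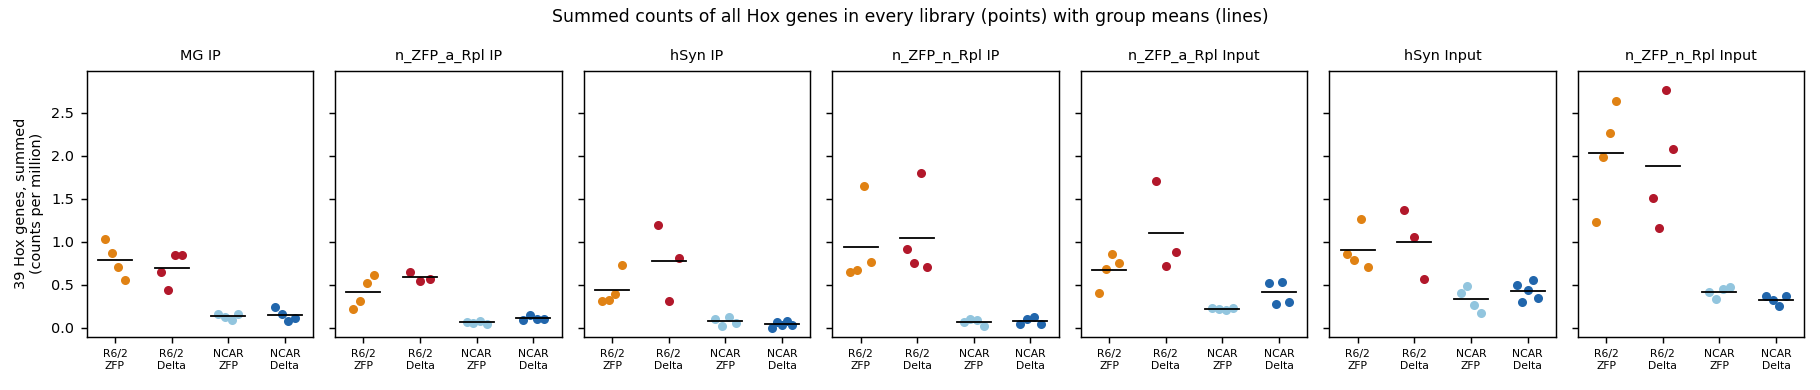
Summed CPM of the 39 Hox genes, by total counts, in every library (points) of the 4 conditions, with group means (lines), by set and fraction. R6/2 Delta points lie above NCAR Delta points in all 7 panels, for example 20 to 48 against 4 to 12 counts in the MG IP.

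Other rare members did the same in part. Over the IPs, R6/2 and NCAR had 72 against 17 counts of Pax1, 23 against 3 of Gata4, 37 against 13 of Six2 and 18 against 2 of Tbx5 (31 against 2 in Inputs). Counts of Pax5 (26 against 37), Irx6 (31 against 57), Pax4 (20 against 24) and Tbx1 (39 against 56) were not higher in R6/2. Of the 42 members with a count in an IP that never reached 10 in any library, 34 (81.0%) had the higher CPM in R6/2, against 1524 of 3282 such genes of the whole table (46.4%). In Inputs it was 35 of 39 (89.7%) against 1642 of 3581 (45.9%). These shares describe pooled counts and carry no test, as the members share libraries and, within a cluster, neighbours.

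The second comparison asked whether the repressor changed these genes in R6/2, as R6/2 ZFP against R6/2 Delta. The R6/2 Delta libraries are those of the first comparison, so both share them. Wt1 was lower with ZFP in the n_ZFP_n_Rpl IP and in both fractions of n_ZFP_a_Rpl, and was not called in MG and hSyn. No member was called higher by edgeR in any set or fraction. For the n_ZFP_n_Rpl IP and both n_ZFP_a_Rpl fractions, the share of all genes called higher is not given here. The lack of higher members there therefore cannot be set against the background. Striatal projection neuron markers moved in the same sets, with 1880 to 2144 CPM in R6/2 ZFP against 667 to 899.6 CPM in R6/2 Delta in the n_ZFP_a_Rpl IP, 1661 to 1833 against 900.1 to 1092 CPM in its Input, 1481 to 2407 against 919.7 to 1241 CPM in the n_ZFP_n_Rpl IP and 823 to 1281 against 585 to 635 CPM in its Input. In the MG IP they had 703 to 914 against 738 to 1062 CPM, in the hSyn IP 1459 to 1693 against 1541 to 1665 CPM and in the hSyn Input 1092 to 1227 against 1161 to 1243 CPM, and these overlapped. Their part in the result was not tested. In the n_ZFP_n_Rpl IP Wt1 had 0.408, 0.638, 0.828 and 0.305 CPM in R6/2 ZFP, against 1.697, 2.199, 5.34 and 2.23 CPM in R6/2 Delta (a log2 fold change of -2.39 ± 0.38 (SE), adjusted p = 0.000721). The groups did not overlap and the call held under all alternatives run. It was 1 of 15 members tested, with 7.95% of all genes lower. Wt1 in the n_ZFP_a_Rpl IP had 0.785, 0.226, 0.0849 and 0.02001 CPM in R6/2 ZFP, against 1.92, 1.02 and 0.651 CPM in R6/2 Delta, where 1 ZFP library lay among the Delta libraries (a log2 fold change of -2.08 ± 0.75 (SE), adjusted p = 0.0455). That call was lost without R6/2 Delta replicate 1 or 2, without R6/2 ZFP replicate 2, 3 or 4, without the filter and with these 2 groups fitted alone (adjusted p from 0.00344 to 0.185 over the alternatives). In the n_ZFP_a_Rpl Input it had 1.19, 0.659, 1.03 and 0.734 CPM, against 3.25, 2.01 and 0.786 CPM (a log2 fold change of -1.15 ± 0.37 (SE), adjusted p = 0.0433). The groups overlapped, and the call was lost without R6/2 Delta replicate 1 or 2 or R6/2 ZFP replicate 2, 3 or 4, with DESeq2 (0.0612) and with these groups alone (0.121). The background was 14.7% of genes lower in the n_ZFP_a_Rpl IP and 5.03% in its Input, where 1 of 21 members was called.

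In the MG IP Wt1 had 2.75, 1.42, 1.13 and 1.23 CPM in R6/2 ZFP, with R6/2 Delta as given above (log2 fold change 0.12 ± 0.36, adjusted p = 0.893). In the hSyn IP it had 5.97, 2.87, 2.73 and 3.98 CPM (0.07 ± 0.44, 0.989) and in the hSyn Input 3.94, 2.62, 2.68 and 3.96 CPM (0.03 ± 0.49, 1). In the n_ZFP_n_Rpl Input it had 0.583, 1.04, 1.03 and 0.371 CPM (-1.23 ± 0.39, 0.102). R6/2 ZFP levels overlapped those of R6/2 Delta in MG and hSyn. No member was called in these 4, of 16, 14, 23 and 20 tested, and DESeq2 called 0, 0, 0 and 1 (Pax6, higher, in the n_ZFP_n_Rpl Input). At an unadjusted p under 0.05 there were 1, 2, 0 and 2. Of all genes, 0.0782% passed in the MG IP, 0.0391% in the hSyn IP, 0% in the hSyn Input and 3.32% in the n_ZFP_n_Rpl Input, in either direction. Whether the Wt1 response differed between sets was not tested.

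Pax6 was the other member called. In the n_ZFP_a_Rpl IP it had 11.1, 12.3, 10.8 and 11.8 CPM in R6/2 ZFP, against 16.3, 16.5 and 17.5 CPM in R6/2 Delta (a log2 fold change of -0.54 ± 0.07 (SE), adjusted p = 3.11e-05). The groups did not overlap. The NCAR ZFP libraries had 12.8, 10.5, 11.6 and 11.5 CPM, and the NCAR Delta libraries 11.3 to 12.7 CPM. Beside it the mural markers summed to 36.9 to 40.6 CPM in R6/2 ZFP against 51.9 to 57.7 CPM in R6/2 Delta, the neuron markers to 4144 to 4335 against 2940 to 3202 CPM and the astrocyte markers to 11410 to 12518 against 14050 to 15253 CPM, with no overlap, and their part was not tested. In the n_ZFP_n_Rpl IP the Pax6 log2 fold change was 0.56 ± 0.20 by edgeR (adjusted p = 0.0664), and DESeq2 called it higher. Irx5 had 1.72, 1.23, 1.41 and 1.42 CPM with ZFP in the MG IP, 1.18, 1.42, 1.49 and 1.16 in n_ZFP_a_Rpl, 0.452, 0.493, 0.458 and 0.424 in hSyn and 0.294, 0.589, 0.446 and 0.327 in n_ZFP_n_Rpl. Its log2 fold changes against R6/2 Delta were -0.48, -0.48, -0.66 and -0.07, none called. Its R6/2 ZFP Inputs had 0.859, 1.04, 0.808 and 1.25 CPM in n_ZFP_a_Rpl, 1.01, 0.901, 1.09 and 0.937 in hSyn and 1.202, 1.295, 1.598 and 0.588 in n_ZFP_n_Rpl, also not called.

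En2 with ZFP had 0.802, 1.75, 1.002 and 0.915 CPM in the MG IP, 0.765, 0.492, 0.849 and 0.7803 in the n_ZFP_a_Rpl IP, 0.706, 0.7303, 0.3105 and 0.626 in the hSyn IP and 0.7701, 0.589, 0.743 and 1.07 in the n_ZFP_n_Rpl IP. Its log2 fold change against R6/2 Delta was -0.64 ± 0.24 in the n_ZFP_n_Rpl IP (adjusted p = 0.0798), which passed as lower without R6/2 ZFP replicate 4 (0.0436), and 0.00, 0.28 and 0.09 in MG, n_ZFP_a_Rpl and hSyn, none called. The R6/2 ZFP Inputs had 1.62, 1.47, 2.07 and 1.395 CPM of En2 in n_ZFP_a_Rpl, 2.17, 1.67, 1.75 and 2.28 in hSyn and 1.603, 2.33, 2.46 and 4.89 in n_ZFP_n_Rpl, not called. Onecut1 was not called in any of the 5 fits that tested it.

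**Figure D5:**
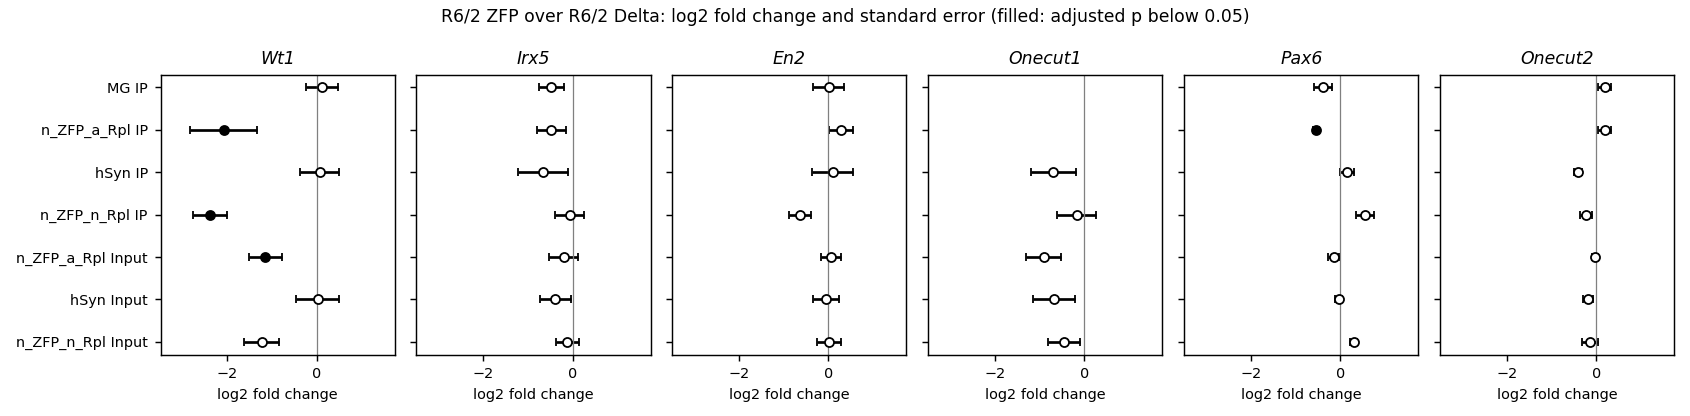
Log2 fold change of R6/2 ZFP over R6/2 Delta with its standard error for Wt1, Irx5, En2, Onecut1, Pax6 and Onecut2 (panels) in each set and fraction (rows), filled at an adjusted p under 0.05. Wt1 is filled in the n_ZFP_n_Rpl IP (-2.39) and in both n_ZFP_a_Rpl fractions (-2.08 and -1.15) and near 0 in MG and hSyn, and Pax6 is filled in the n_ZFP_a_Rpl IP (-0.54).

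In NCAR mice the repressor, set against Delta, went with 1 called difference. Onecut2 had 17.3, 13.6, 17.3 and 17.01 CPM in NCAR ZFP, against 18.7, 23.4, 30.1 and 21.9 CPM in NCAR Delta of the MG IP (a log2 fold change of -0.53 ± 0.15 (SE), adjusted p = 0.0469), 1 of 16 members tested with 3.36% of all genes lower. The call was lost in 10 of 14 alternatives, among them leaving out NCAR ZFP replicate 3, 4 or 5 or any NCAR Delta library (adjusted p up to 0.140). In the same IP neuron markers had 4009 to 4224 CPM in NCAR ZFP against 4504 to 4968 CPM in NCAR Delta, and striatal projection neuron markers 1674 to 2542 against 2914 to 3135 CPM, with no overlap. Their part in the result was not tested. No member was called in the other 6 comparisons, by edgeR. At an unadjusted p under 0.05 there were 0 in the n_ZFP_a_Rpl IP, 0 in the hSyn IP, 2 in the n_ZFP_n_Rpl IP, 1 in the hSyn Input, 1 in the n_ZFP_a_Rpl Input and 3 in the n_ZFP_n_Rpl Input. DESeq2 called 1, Pax6 in the n_ZFP_n_Rpl IP, and none in the other 5. Of all genes, in either direction, 2.07% passed in the n_ZFP_a_Rpl IP, 0.0261% in the hSyn IP, 7.36% in the n_ZFP_n_Rpl IP, 0.00622% in the hSyn Input, 0.957% in the n_ZFP_a_Rpl Input and 3.03% in the n_ZFP_n_Rpl Input.

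NCAR ZFP libraries had Wt1 at 0.105, 0.0824, 0.158 and 0.0159 CPM in the MG IP, 0.268, 0.353, 0.0221 and 0.176 CPM in that of n_ZFP_a_Rpl, 0.695, 0.758, 0.264 and 0.152 CPM in that of hSyn and 0.5698, 0.401, 0.264 and 0.251 CPM in that of n_ZFP_n_Rpl. Their Inputs had Wt1 at 0.142, 0.163, 0.108 and 0.152 CPM in n_ZFP_a_Rpl, 0.281, 0.714, 0.418 and 0.0316 CPM in hSyn and 0.425, 0.2298, 0.153 and 0.102 CPM in n_ZFP_n_Rpl. None of these differed from NCAR Delta past the threshold. Irx5 was at 0.168, 0.343, 0.379 and 0.571 CPM in the MG IP, 0.157, 0.265, 0.133 and 0.4399 CPM in that of n_ZFP_a_Rpl, 0.0204, 0.0758, 0.286 and 0.065 CPM in that of hSyn and 0.0496, 0.0534, 0.147 and 0.0228 CPM in that of n_ZFP_n_Rpl. In their Inputs Irx5 was at 0.319, 0.3901, 0.397 and 0.091 CPM in n_ZFP_a_Rpl, 0.383, 0.37, 0.209 and 0.0949 CPM in hSyn and 0.327, 0.345, 0.307 and 0.171 CPM in n_ZFP_n_Rpl. It was not called in any of them either. En2 was at 0.377, 0.632, 0.4104 and 0.206 CPM in the MG IP, 0.246, 0.486, 0.509 and 0.396 CPM in that of n_ZFP_a_Rpl, 0.266, 0.189, 0.11 and 0.173 CPM in that of hSyn and 0.297, 0.481, 0.234 and 0.251 CPM in that of n_ZFP_n_Rpl. In their Inputs En2 was at 1.24, 1.82, 1.34 and 1.304 CPM in n_ZFP_a_Rpl, 1.81, 0.819, 0.758 and 1.08 CPM in hSyn and 1.83, 2.18, 2.03 and 1.23 CPM in n_ZFP_n_Rpl. Again none was called.

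The interaction, the ZFP difference in R6/2 minus that in NCAR, was called for Pax6 in the n_ZFP_a_Rpl IP (-0.50 ± 0.10 on the log2 scale, adjusted p = 0.00255) and for Wt1 in the n_ZFP_n_Rpl IP (-2.93 ± 0.61, 0.00617). The background was 5.07% of all genes lower in n_ZFP_a_Rpl and 4.68% in n_ZFP_n_Rpl. In n_ZFP_a_Rpl the Wt1 interaction was -2.13 ± 1.17 (adjusted p = 0.247). No member was called in the MG and hSyn IPs by edgeR or DESeq2, where 0% and 0% of all genes were, and 3 and 1 members had an unadjusted p under 0.05.

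Set against its own Input over all conditions, most detected members were poorer in the IP. In hSyn 1 of 23 members tested was higher in the IP and 20 lower, against 39.2% and 39.5% of all genes. In n_ZFP_a_Rpl 3 of 22 were higher and 16 lower (all genes 42.1% and 42.8%). In n_ZFP_n_Rpl 2 of 22 were higher and 17 lower (all genes 42.6% and 40.7%). Six3 was higher in the neuron IPs of hSyn (0.82 ± 0.07) and n_ZFP_n_Rpl (0.45 ± 0.09), and Pax6 was higher in the astrocyte IP of n_ZFP_a_Rpl (0.85 ± 0.05), where Irx5 (0.56 ± 0.19) and Six5 (0.45 ± 0.10) were also higher. Wt1 was higher in the n_ZFP_n_Rpl IP (0.72 ± 0.26). Pax6 was lower in both neuron IPs (-0.80 ± 0.06 and -1.12 ± 0.08) and Six3 lower in the n_ZFP_a_Rpl IP (-0.22 ± 0.05). The 5 lowest in hSyn were Tbx1 (-4.90 ± 0.31), Tbx21 (-4.16 ± 0.76), Gata2 (-3.40 ± 0.23), Irx1 (-3.21 ± 0.31), Irx6 (-2.82 ± 0.45). In n_ZFP_a_Rpl they were Tbx1 (-4.69 ± 0.28), Gata2 (-4.23 ± 0.24), Tbx18 (-4.11 ± 0.21), Irx6 (-3.33 ± 0.44), Tbx3 (-2.62 ± 0.14), and in n_ZFP_n_Rpl Irx1 (-3.81 ± 0.29), Gata2 (-3.76 ± 0.27), Tbx1 (-3.66 ± 0.27), Irx6 (-3.36 ± 0.39), Tbx18 (-2.94 ± 0.13). Values are log2 fold changes of IP over Input with their SE, from fits without a block for pairs.

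The R6/2 Delta difference in the IP minus that in the Input was called for En2 in n_ZFP_n_Rpl alone (1.51 ± 0.43, adjusted p = 0.0442, with 1.2% of all genes higher). It was lost without R6/2 Delta IP replicate 4, NCAR Delta IP replicate 2 or 4 or NCAR Delta Input replicate 4, and without the filter (adjusted p up to 0.0736). With the replicate number as a block, which pairs IP and Input here, 3 members were called, with Six3 and Six4 added. In hSyn and n_ZFP_a_Rpl no member was called of 23 and 22 tested by edgeR or DESeq2, with 5 and 2 at an unadjusted p under 0.05 (1.01% and 1.86% of all genes in either direction). The R6/2 Delta difference in the 2 neuron IPs minus that in the 2 astrocyte IPs was called for Onecut2 (0.51 ± 0.14, adjusted p = 0.00818), 1 of 21 members tested, with 11.5% of all genes higher. For Wt1 it was 0.44 ± 0.64 (adjusted p = 0.685). By set, the R6/2 Delta difference of Onecut2 was -0.81 in MG and -0.16 in n_ZFP_a_Rpl (astrocytes). In the neuron sets it was -0.26 in hSyn and 0.28 in n_ZFP_n_Rpl, so the n_ZFP_a_Rpl and hSyn values lay close. Cell type and set cannot be fully told apart here.

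Genes that silence, activate or partner these factors were examined as lists in the same R6/2 Delta against NCAR Delta fits of the IPs. Median log2 fold changes of all genes tested were 0.04 in the MG IP and within 0.01 of 0 in the others. Of all genes tested, 17.4% were called higher and 16.2% lower in MG, 20.6% and 24.7% in n_ZFP_a_Rpl, 25.4% and 25.5% in hSyn and 25.2% and 26.2% in n_ZFP_n_Rpl, against which the numbers of each list are to be read. Of 11 genes of Polycomb complex PRC2, which methylates histone H3 lysine 27, the numbers called higher and lower were 2 and 3 in MG, 2 and 3 in n_ZFP_a_Rpl, 4 and 3 in hSyn and 3 and 3 in n_ZFP_n_Rpl, with list medians of -0.02, -0.08, 0.16 and 0.06. In this list the methyltransferase gene Ezh2 fell in all 4, with log2 fold changes of -0.43, -0.28, -0.43 and -0.32 in MG, n_ZFP_a_Rpl, hSyn and n_ZFP_n_Rpl. The cofactor Jarid2 also fell in all 4 (-0.43, -0.26, -0.52 and -0.51). The PRC2 genes called higher are counted above and not named. Of 19 genes of PRC1, which ubiquitinates histone H2A and compacts chromatin, 5 and 1 in MG, 7 and 3 in n_ZFP_a_Rpl, 10 and 1 in hSyn and 8 and 1 in n_ZFP_n_Rpl were called higher and lower (medians 0.01, 0.10, 0.18 and 0.17). Its subunit Bmi1 rose in all 4 (0.65, 0.65, 0.77 and 0.70), and so did Rnf2 (0.43, 0.49, 0.57 and 0.43). The PRC1 genes called lower are likewise counted and not named. Of the 2 demethylases that remove the mark, Kdm6b fell in the MG IP (-0.65) and neither was called elsewhere. Of 6 trithorax methyltransferases, which oppose Polycomb, 0 and 5 in MG, 1 and 2 in n_ZFP_a_Rpl, 0 and 2 in hSyn and 1 and 1 in n_ZFP_n_Rpl were called. Kmt2a, the founding member in mammals, fell in all 4 (-0.57, -0.27, -0.69 and -0.36).

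Of 9 TALE cofactors, which bind DNA with Hox proteins, 1 and 3 in MG, 1 and 5 in n_ZFP_a_Rpl, 2 and 3 in hSyn and 1 and 4 in n_ZFP_n_Rpl were called higher and lower (medians -0.25, -0.22, -0.16 and -0.01). Meis1 rose in all 4 IPs (0.55, 0.49, 0.56 and 0.75) and Meis2 fell in all 4 (-0.38, -0.32, -0.27 and -0.31). Of 8 cofactors of Six-family and Gata proteins, 2 and 2 in MG, 3 and 2 in n_ZFP_a_Rpl, 2 and 2 in hSyn and 2 and 2 in n_ZFP_n_Rpl were called. Dach2 rose in all 4 (1.14, 0.77, 1.94 and 1.67), and Zfpm1, a Gata partner, fell in all 4 (-1.01, -1.04, -0.65 and -0.89). Of 75 other homeobox genes 28 to 31 were tested per IP, and 3 and 5 in MG, 4 and 8 in n_ZFP_a_Rpl, 6 and 9 in hSyn and 5 and 4 in n_ZFP_n_Rpl were called. Shox2, a limb and heart pacemaker factor, had 49 counts in R6/2 Delta and 0 in NCAR Delta of the MG IP, 19 and 1 in n_ZFP_a_Rpl, 97 and 2 in hSyn and 186 and 60 in n_ZFP_n_Rpl. Barx1, a stomach and jaw factor, had 5 and 0 in the MG IP, 6 and 0 in n_ZFP_a_Rpl, 11 and 0 in hSyn and 49 and 0 in n_ZFP_n_Rpl. Shox2 and Barx1 were picked from the list, and the homeobox genes called lower are counted but not named. Of 4 other T-box genes 2 were tested, and Mga, a T-box repressor, fell in the n_ZFP_a_Rpl, hSyn and n_ZFP_n_Rpl IPs (-0.21, -0.45 and -0.29). Of 11 antisense partners in the table, 1 was tested (Six3os1) and not called. Mira, a noncoding RNA of the Hoxa cluster singled out after its values were seen, had 15 against 1 counts in the MG IP, 7 against 2 in the n_ZFP_a_Rpl IP, 15 against 0 in the hSyn IP and 19 against 1 in the n_ZFP_n_Rpl IP, as R6/2 Delta against NCAR Delta. The Inputs had 6 against 2 in n_ZFP_a_Rpl, 15 against 0 in hSyn and 12 against 0 in n_ZFP_n_Rpl, without a test.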

How the data were processed

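Libraries of 110 samples were made by RiboTag pulldown (IP) or from tissue (Input) with a TruSeq kit, per the labels' protocols. The values are raw read counts per gene, deposited by the authors in 1 table. The submitters' processing notes name STAR, HTSeq and mm10. No version, filter or use of strand is given in the sources used here. Of 24060 gene rows, 4 with repeated symbols were left out. No sample column was unused and no 2 libraries held identical values.

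Counts were tested with edgeR 4.0.16 (R 4.3.3; TMM, robust quasi-likelihood fit, filterByExpr with a minimum count of 10 and total of 15), the 4 conditions of a set and fraction in 1 model, and p-values adjusted by Benjamini-Hochberg over all genes tested at 0.05. IP and Input were fitted together for IP against Input and for differences between fractions, and all IPs together for neurons against astrocytes, giving 32 comparisons. The fit was tested on simulated data, with changes placed only in genes of higher counts than many members have. That check therefore does not cover the fit at low counts. Levels are TMM-scaled CPM, computed here. A floor of 3 counts per group gave bounds, and intervals of 95% cover counting error only. Symbols of all 84 members matched RefSeq (GRCm38.p6).

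Replicate numbers were checked for pairing by the correlation of deviations from group means. It was over 0.1 for all 15 and all 16 IP and Input pairs of n_ZFP_a_Rpl and n_ZFP_n_Rpl (0.296 to 0.500 and 0.367 to 0.595). For hSyn it was over 0.1 in 11 of 14 (-0.143 to 0.545). Libraries with different numbers were not correlated, so this cannot settle whether the numbers pair the fractions. Main fits had no block for pairs. Conditions were not paired. Alternatives were DESeq2 1.42.0, RLE factors, no filter, a mean of 10 counts, the compared groups alone, the replicate block and leaving out each library. Members called in at least 3 of 4 IPs are given in every library. The 5 highest and 5 lowest called members per comparison, the singly named members and the member of each family with the most counts are also named. Members and gene lists were chosen with earlier results of these data known. Some members are counted in the totals but not reported singly here.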

Additional observations from a re-analysis of the deposited data

Results flagged for a closer look

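Among 72 combinations of group and gene examined for a single library apart from the rest (Wt1, Irx5 and En2 in groups of 4 or more, on log2 of CPM plus 0.1), 3 were flagged. Chance alone flags about 1 in 20 of such combinations, so 3 of 72 are no excess. Wt1 had 0.0710 CPM in replicate 3 of NCAR Delta in the n_ZFP_a_Rpl Input, and the other 3 libraries had 0.317 to 0.366 CPM. Irx5 had 0 CPM in replicate 3 of NCAR Delta in the hSyn IP, and the other 4 had 0.120 to 0.173 CPM. Irx5 had 0.109 CPM in replicate 2 of NCAR Delta in the n_ZFP_a_Rpl Input, and the other 3 had 0.284 to 0.293 CPM.

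4 differences between effects passed the test of the difference itself (edgeR, adjusted over all genes tested). The ZFP effect in R6/2 minus that in NCAR was -0.50 on the log2 scale for Pax6 in the n_ZFP_a_Rpl IP (adjusted p = 0.00255) and -2.93 for Wt1 in the n_ZFP_n_Rpl IP (0.00617). The R6/2 Delta effect in the IP minus that in the Input was 1.51 for En2 in n_ZFP_n_Rpl (0.0442). The R6/2 Delta effect in the neuron IPs minus that in the astrocyte IPs was 0.51 for Onecut2 (0.00818). In that last contrast cell type and set cannot be fully told apart.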

How the results depend on the processing

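No called value or count changed direction under any alternative. Of 108 values of named members, 14 changed sign under at least 1 alternative, none of them among the 73 called. Of the values of named members, DESeq2 left 105 of 108 on their side of the threshold, RLE factors 108 of 108, no filter 103 of 108, a mean of 10 counts 94 of 94, the compared groups alone 72 of 78, the replicate block 103 of 108 and leaving out a library 1290 of 1364. Counts of called members that moved by over 1.5 times were these; the cause was not tested beyond the change in genes or libraries. For R6/2 Delta against NCAR Delta, no filter gave 10 in the hSyn IP (Hoxa7, Hoxc4, Hoxc5, Hoxd1 and Tbx1 gained), 10 in the n_ZFP_n_Rpl IP (Hoxa7, Hoxb8, Hoxc4 and Hoxc5 gained) and 8 in the n_ZFP_a_Rpl Input, and a mean of 10 counts gave 3 in the n_ZFP_n_Rpl IP (Hoxb5, Onecut1 and Pax2 no longer tested). Leaving out a library gave 5 to 8 in the n_ZFP_a_Rpl IP, 5 to 8 in the hSyn Input, 3 to 5 in the n_ZFP_a_Rpl Input and 6 to 10 in the n_ZFP_n_Rpl Input. For R6/2 ZFP against R6/2 Delta, DESeq2 gave 2 in the n_ZFP_n_Rpl IP, 0 in the n_ZFP_a_Rpl Input and 1 in the n_ZFP_n_Rpl Input, and the compared groups alone gave 1 in the n_ZFP_a_Rpl IP, 0 in its Input and 1 in the n_ZFP_n_Rpl Input. Without single libraries it was 0 to 2 in the MG IP, 1 to 2 in the n_ZFP_a_Rpl IP, 1 to 2 in the n_ZFP_n_Rpl IP and 0 to 1 in the n_ZFP_a_Rpl Input. For NCAR ZFP against NCAR Delta, the MG IP had 2 with RLE factors, 0 without the filter, 2 with a mean of 10 counts, 0 with the replicate block and 0 to 1 without single libraries; the n_ZFP_n_Rpl IP had 1 with DESeq2 and 0 to 1 without single libraries, and its Input 0 to 1. The interaction had 1 to 2 in the n_ZFP_a_Rpl and 1 to 2 in the n_ZFP_n_Rpl IP without single libraries. IP against Input in n_ZFP_n_Rpl had 30 without the filter. The difference between fractions had 1 in hSyn with the replicate block and 0 to 1 without single libraries, and in n_ZFP_n_Rpl 0 without the filter, 3 with the block and 0 to 1 without single libraries. Neurons minus astrocytes had 2 with DESeq2, 2 with RLE factors, 2 with a mean of 10 counts (Six4 gained each time), 2 with the block (Tbx15 gained) and 1 to 3 without single libraries. Between conditions the numbers are not stated to pair the libraries, and the block lost 5 named calls and gained none: Irx1 in the n_ZFP_a_Rpl Input, Irx2 in the hSyn Input, Irx3 in the MG IP, Tbx3 in the n_ZFP_a_Rpl IP (all R6/2 Delta against NCAR Delta) and Onecut2 of NCAR ZFP in the MG IP. Low counts limit the 50 members that never reached 10, for which absence of a call shows no lack of difference.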
